A study of Arabidopsis thaliana with 4 samples.

Results

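SHORT-ROOT (SHR), a transcription regulator of the GRAS family, acts with SCARECROW to pattern the ground tissue of Arabidopsis and to set up the endodermis. The genes described here are 82 protein-coding genes that carry no gene name in the deposited table and whose transcript level in dark-grown hypocotyls was far higher in the shr-2 mutant than in the wild type. They were chosen by the measured values themselves: a mean of at least 5 FPKM (sequenced fragments per unit of transcript length, relative to the library's total) over the shr-2 libraries, and a Col-0 mean of at most 0.25 times that mean. One identifier, AT5G38410, was set aside by the rule. The 82 came from 14795 unnamed protein-coding genes in a table of 32538 genes, and they made up 1.21% of the 6766 unnamed coding genes that reached 5 FPKM in shr-2. Since the difference between genotypes chose them, it is given as a description, and no test of it is used as support.

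Poly(A) RNA was sequenced from the hypocotyl, the seedling stem below the cotyledons, of 5-day-old Arabidopsis thaliana seedlings kept in darkness at 22 °C after 24 hours of germination. The reference accession Col-0, wild type, gave 2 libraries and the mutant shr-2, which carries a lesion in SHR, gave 2 libraries, described in the series as biological duplicates. How the shr-2 line was propagated and how many seedlings entered a library are not given in the sources used here. SHR itself (AT4G37650) read 28.4 and 28.9 FPKM in Col-0 and 2.57 and 3.45 FPKM in shr-2, and its log2 fold change of FPKM + 1 was -2.90, standard error 0.14 (limma, adjusted p = 0.00049). In the labels, the genotype entry of the mutant libraries is an overexpressor and the tissue entry is root tip, which go against the titles and the protocol. In these libraries 6 markers of root meristem and root hair summed to at most 0.434 FPKM in any library.

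Genes without a name are mostly known only from a predicted protein, a domain or a likeness to a studied family. Several of the families here have textbook roles. Lipid transfer proteins are small secreted proteins held together by disulfide bonds that bind lipids and mostly act outside the cell, lectins bind sugars, extensins are structural cell wall glycoproteins, and defensin-like peptides are small and cysteine-rich.

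The sequences shown first belong to members around which the results turn. AT1G78860, which encodes a mannose-binding lectin, was higher in shr-2 while a nearly identical neighbour, AT1G78850, was lower, and their start regions are shown to be compared. Each window runs from 250 bases before to 50 bases after the annotated start, read 5′ to 3′ on the gene's own strand, from the RefSeq TAIR10.1 assembly. The first is chr1:29647642-29647941 and the second chr1:29643486-29643785, both on the minus strand. Capitals mark matches on either strand to 14 short motifs, here TTGACT (part of the W-box of WRKY factors), TATAAA (the box that positions transcription starts) and GATAAG (I-box).
AT1G78860: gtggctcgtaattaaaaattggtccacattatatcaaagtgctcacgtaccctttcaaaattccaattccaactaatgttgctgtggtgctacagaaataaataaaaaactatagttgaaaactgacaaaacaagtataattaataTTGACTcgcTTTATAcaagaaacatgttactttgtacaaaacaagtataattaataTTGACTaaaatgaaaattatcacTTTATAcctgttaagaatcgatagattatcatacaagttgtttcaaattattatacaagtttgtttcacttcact
AT1G78850: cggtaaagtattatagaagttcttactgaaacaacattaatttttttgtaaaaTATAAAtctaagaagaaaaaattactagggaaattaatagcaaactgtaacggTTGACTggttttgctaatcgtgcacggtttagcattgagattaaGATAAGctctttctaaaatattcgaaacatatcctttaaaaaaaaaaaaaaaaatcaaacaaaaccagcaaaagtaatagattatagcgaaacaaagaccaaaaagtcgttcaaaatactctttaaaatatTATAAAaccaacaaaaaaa
The windows were 51.9% identical over 349 columns of a global alignment. The windows of AT4G10265 and AT4G33560, members of another family on different parts of chromosome 4, gave 52.2%. No pair of unrelated genes was aligned for comparison. The transcripts of the lectin pair were 91.3% identical over 82.5% of that of AT1G78860, and their proteins were 93.2% identical. Their windows, which include 50 bases after the annotated start, were less alike. TTGACT occurred at -104 and -48 in AT1G78860, counted from the start, and in 25.6% of member windows against 21.9% of all 27416 windows of coding genes.

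The next windows belong to the wound-responsive family, of which 3 members were found. The annotation gives the family name, and its members are small proteins of 83 to 95 residues. AT4G10265 (chr4:6373618-6373917, minus strand) and AT4G10270 (chr4:6374484-6374783, plus strand) lie head to head and AT4G33560 (chr4:16134907-16135206, plus strand) stands apart. Capitals mark TGACG (the core of the as-1 element bound by TGA factors), GATAAG as above, TATAAA as above and GCCGCC (GCC box of ethylene response factors).
AT4G10265: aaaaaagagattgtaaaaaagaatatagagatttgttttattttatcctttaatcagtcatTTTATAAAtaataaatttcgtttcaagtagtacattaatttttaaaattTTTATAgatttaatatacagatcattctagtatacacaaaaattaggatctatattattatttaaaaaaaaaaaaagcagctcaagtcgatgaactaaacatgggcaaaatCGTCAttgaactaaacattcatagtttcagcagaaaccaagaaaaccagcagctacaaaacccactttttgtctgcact
AT4G10270: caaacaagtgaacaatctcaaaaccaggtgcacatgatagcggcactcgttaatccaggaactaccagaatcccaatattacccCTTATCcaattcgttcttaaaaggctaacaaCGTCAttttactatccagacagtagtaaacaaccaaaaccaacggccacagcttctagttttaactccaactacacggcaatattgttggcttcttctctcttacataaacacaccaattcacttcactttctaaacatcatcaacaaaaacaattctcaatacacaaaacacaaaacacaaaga
AT4G33560: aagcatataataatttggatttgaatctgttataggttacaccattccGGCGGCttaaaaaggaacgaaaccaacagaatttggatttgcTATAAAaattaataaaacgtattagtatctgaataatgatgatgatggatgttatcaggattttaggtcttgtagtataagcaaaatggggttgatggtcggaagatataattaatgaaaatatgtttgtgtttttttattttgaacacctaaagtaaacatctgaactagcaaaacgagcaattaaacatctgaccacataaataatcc
TGACG occurred once in each of the head-to-head windows, at -29 and -135 from the start and on the opposite strand, and was found in 34.1% of member windows against 23.1% of all windows. GCCGCC occurred in AT4G33560 at -202 and in 3.66% of member windows against 2.58%. Other motifs of the 14 were less frequent in member windows. GATAAG was found in 13.4% of member windows against 14.6% of all windows, and AAACCCTA (telo-box) in 2.44% against 6.21%. The shares thus went both ways, and no difference between them was tested. A match is a description of letters, not of a bound site.

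The last sequence is the whole model of AT2G11271, chr2:4485414-4485539 on the minus strand, which is only 126 bases long and had the highest FPKM of all members. It is shown because it lies within another member, AT2G11270, on the other strand.
AT2G11271: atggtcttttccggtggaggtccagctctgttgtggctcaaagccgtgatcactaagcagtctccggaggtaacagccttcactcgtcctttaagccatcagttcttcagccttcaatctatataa

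The levels of the 82 members spanned a wide range. The shr-2 mean ran from 5.03 to 510 FPKM with a median of 10.6, and the Col-0 mean had a median of 1.26 FPKM. A mean of at least 20 FPKM in shr-2 was reached by 24 members, and 36 stayed under 10 FPKM. In Col-0, 37 members averaged under 1 FPKM, and 9 of these were listed at 0 in both libraries. Where the Col-0 mean was above 0, which held for 73 members, the ratio of the means had a median of 8.34 and reached 351. The shr-2 libraries lay above both Col-0 libraries in 78 members. The other 4 members were listed at 0 in one shr-2 library. A limit on the ratio of the means favours such separation, so the count says nothing of its own. The share over all genes is not given here.

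**Figure D1:**
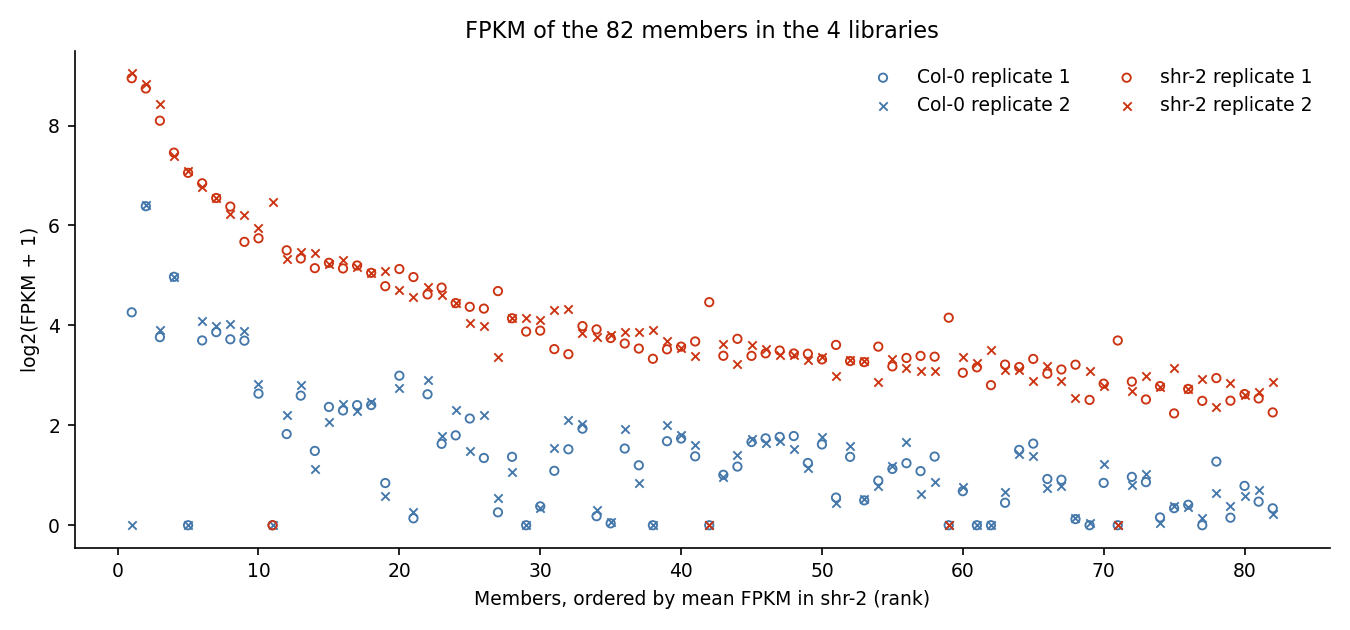
Levels of the 82 members in each library, as log2(FPKM + 1), against their rank by mean FPKM in shr-2. Circles are replicate 1 and crosses replicate 2, blue for Col-0 and red for shr-2. Both red points lie above both blue points in 78 of the 82 members, which the rule of choice favours.

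**Figure D2:**
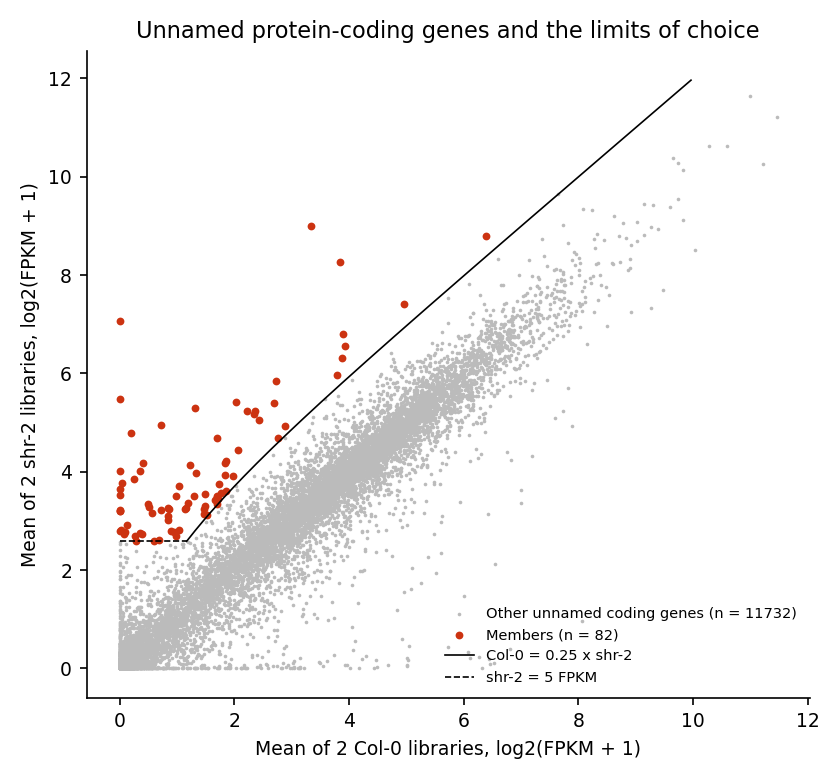
Mean of 2 Col-0 libraries (horizontal) against mean of 2 shr-2 libraries (vertical), both as log2(FPKM + 1), for unnamed protein-coding genes above 0 in at least one mean. Red points are the 82 members, and the lines are the limits by which they were chosen, 5 FPKM in shr-2 and a Col-0 mean of 0.25 times the shr-2 mean.

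The limits cut through a continuous field of values, as the plot of unnamed genes shows. Just inside the level limit lay AT5G62210, an embryo-specific ATS3 protein, at 5.03 FPKM in shr-2, and AT5G38540, a mannose-binding lectin, at 5.07 FPKM. Just outside lay AT5G64401 at 4.97 FPKM and AT1G02710 at 4.80 FPKM. At the ratio limit, AT3G08490 (Col-0 over shr-2 0.244) and AT2G48090 (0.242) were inside, while AT1G78820 (0.2502) and AT1G26290 (0.255) were outside. AT1G78820 is another lectin of the AT1G78860 type, at 9.13 and 12.8 FPKM in Col-0 and 28.2 and 59.5 FPKM in shr-2.

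The highest member, AT2G11271, read 18.2 and 0 FPKM in Col-0 and 492 and 527 FPKM in shr-2. Its Col-0 libraries were the most different of any member, one of them being listed at 0. AT2G11270, annotated as a citrate synthase-like protein and overlapping it on the other strand, read 1.8 and 1.17 FPKM in Col-0 and 34.4 and 42.6 FPKM in shr-2. For both genes the shr-2 libraries stood above both Col-0 libraries, which the rule of choice favours. The sources used here do not state whether reads were assigned by strand, so the levels of such an overlapping pair are uncertain.

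AT2G25964, an uncharacterized protein of 50 residues, had the highest Col-0 level of the members, 82.6 and 83.6 FPKM, and read 427 and 457 FPKM in shr-2. AT3G63160, OEP6, a protein of the chloroplast outer envelope, read 30.4 and 30.2 FPKM in Col-0 and 175 and 166 FPKM in shr-2. AT1G50290, uncharacterized, read 12 and 15.9 FPKM in Col-0 and 114 and 108 FPKM in shr-2. AT3G58875, also uncharacterized, read 5.2 and 6.11 FPKM in Col-0 and 52.5 and 60.4 FPKM in shr-2. In these 4 genes the replicates lay close together, and the distance between genotypes is what the rule chose them by. All 4 were expressed in Col-0, so their difference was one of amount.

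The Col-0 mean was at most 0.05 of the shr-2 mean in 27 members. The 5 named next were under 1 FPKM in both Col-0 libraries, while others of the 27, such as AT3G53980 at a mean of 13.3 FPKM, had a clear Col-0 level. AT2G05915, a predicted protein of 116 residues at chr2:2263816-2264265 on the plus strand, was listed at 0 in both Col-0 libraries and read 132 and 136 FPKM in shr-2. AT5G27010, an ARM repeat protein of 863 residues at chr5:9503315-9507569, was listed at 0 in both Col-0 libraries and read 13.7 and 16.7 FPKM in shr-2. AT5G32460, which encodes a transcriptional factor of the B3 family that binds DNA, read 0.0266 and 0.0461 FPKM in Col-0 and 12.4 and 13.1 FPKM in shr-2. AT1G12805, annotated as a nucleotide binding protein, read 0.101 and 0.208 FPKM in Col-0 and 30.3 and 22.6 FPKM in shr-2. AT1G80555, an isopropylmalate dehydrogenase family protein, read 0.796 and 0.508 FPKM in Col-0 and 26.6 and 33.1 FPKM in shr-2.

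The largest differences in mean log2(FPKM + 1) among all members were 7.07 for AT2G05915, 6.86 for AT2G11271, 4.56 for AT1G12805, 4.43 for AT3G53980, 4.22 for AT1G80555, 4.01 for AT5G27010, 3.99 for AT2G11270 and 3.73 for AT5G32460. AT3G29970, a B12D protein, had a difference of 3.63 and disagreed most between its shr-2 libraries among members present in all of them, at 24.7 and 9.36 FPKM. AT5G25995, uncharacterized, had a difference of 3.64 and read 13.9 and 16.3 FPKM in shr-2. The authors' deposited table did not call AT2G05915, AT2G11271, AT1G12805, AT5G32460 or AT5G25995, and called the others of this paragraph. A large difference here is thus not a secure one by itself, and the model of AT2G11271 has only 126 bases.

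The 4 members listed at 0 in one shr-2 library had models of 111 to 135 bases. AT2G46567 read 0 and 87.2 FPKM in shr-2, AT4G31441 read 21.1 and 0, AT3G48298 read 16.8 and 0 and AT5G12236 read 12 and 0. Each was listed at 0 in both Col-0 libraries. In these 4 the genotypes overlapped, the authors' deposited table gives no completed test, and a single fragment in so short a model is worth many times what it is worth in a long one. In the low values of long coding models, the product of FPKM and kilobases most often lay between 0.03 and 0.05 in all 4 libraries. This gives the order of size of 1 fragment in those long models. Whether it holds for models this short was not tested, so the number of fragments behind their values is unknown. For the 4 short members no difference between genotypes can be stated.

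The family of lipid transfer and seed storage-like proteins held 4 members, 3 of them among the 10 members of highest shr-2 mean. For these 3 the annotation names a superfamily of inhibitors, lipid transfer proteins and seed storage albumins. It does not say which of these a member is. AT3G53980 read 12.6 and 14 FPKM in Col-0 and 273 and 345 FPKM in shr-2, a mean of 309 ± 50.9 (SD, n = 2). AT2G37870 read 12.2 and 15.3 FPKM in Col-0 and 82.2 and 74.4 FPKM in shr-2. AT4G00165 read 11.9 and 13.7 FPKM in Col-0 and 50 and 72.5 FPKM in shr-2. Another, AT3G22142, was far lower, at 0.267 and 0.308 FPKM in Col-0 and 3.72 and 7.87 FPKM in shr-2. AT3G53980 and AT2G37870 are related to each other, with 42.3% identity over 95.6% of AT3G53980. Of the 40 tested non-members of this family, 11 rose and 14 fell (limma, adjusted p under 0.05), which is 27.5% and 35.0%. Over all 19920 genes tested, 13.9% were called higher and 13.7% lower. The difference between the family's shares and those of the table was not tested. Over all the families described here, 1040 non-members were called higher. That pooled count shrank whichever library was left out, as did the count over the whole table. It was not taken for each family by itself.

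The lectins among the members were AT1G78860, the legume lectin AT1G53080 and the mannose-binding AT5G38540. AT1G78860 read 13.6 and 14.9 FPKM in Col-0 and 92.6 and 92.6 FPKM in shr-2. AT1G53080 read 2.21 and 3.04 FPKM in Col-0 and 10.5 and 11.9 FPKM in shr-2. Of 92 tested lectins that are not members, 12 rose and 23 fell, 13% and 25%. The wound-responsive members were AT4G33560, at 2.54 and 3.62 FPKM in Col-0 and 44.3 and 39.2 FPKM in shr-2, and AT4G10270, at 3.39 and 1.81 and then 19.7 and 15.5 FPKM. AT4G10265 read 1.42 and 0.563 FPKM in Col-0 and 6.70 and 4.16 FPKM in shr-2. The latter pair share 65.6% of their residues. Of 7 other tested genes with this family name, 0 rose and 3 fell by the same test.

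Hydrolases and oxidoreductases were each represented by 6 members. Among the hydrolases was AT2G43590, of the chitinase family, which read 1.90 and 2.77 FPKM in Col-0 and 11.4 and 13.6 FPKM in shr-2. Oxidoreductases included AT1G80555 and AT4G12870, a thiol reductase of the GILT family, which read 2.48 and 3.94 FPKM in Col-0 and 20.8 and 20.7 FPKM in shr-2. Non-members of the oxidoreductase class were called higher in 269 of 1115 tested (24.1%) and lower in 176 (15.8%). Hydrolases outside the members rose in 246 of 1354 (18.2%) and fell in 199 (14.7%).

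Transferases, transporters and small cysteine-rich or secreted peptides held 3 members each. AT1G72030, an N-acyltransferase, read 5.04 and 5.96 FPKM in Col-0 and 39.4 and 43.5 FPKM in shr-2. AT3G59930, a defensin-like protein, read 4.16 and 3.17 FPKM in Col-0 and 37.1 and 36.6 FPKM in shr-2. AT4G13390, EXT12, read 1.87 and 3.31 FPKM in Col-0 and 9.73 and 19.1 FPKM in shr-2. AT3G25190, a vacuolar iron transporter family protein, read 1.01 and 0.961 FPKM in Col-0 and 9.49 and 11.3 FPKM in shr-2. Of the other tested genes of these classes, transferases rose in 15.3%, transporters in 12.5% and cysteine-rich or secreted peptides in 18.1%, beside the 13.9% of all genes. The largest group, 31 members, had a product annotated as uncharacterized or, for CRR42, as a DUF family protein, and 11.9% of the other 1727 tested genes of that kind rose while 17.6% fell.

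Several members of intermediate level have a product that can be described. AT5G19100, of the aspartyl protease family, read 4.3 and 4.55 FPKM in Col-0 and 32.2 and 32.2 FPKM in shr-2. AT1G80130, a protein of tetratricopeptide repeats, which bind other proteins, read 3.91 and 4.37 FPKM in Col-0 and 34.2 and 38.7 FPKM in shr-2. AT4G00670, of the remorin family of plasma membrane proteins, read 6.96 and 5.75 FPKM in Col-0 and 34.0 and 25 FPKM in shr-2. In each of the 3 the libraries of a genotype were closer to each other than to the other genotype, which the rule favours. RH8 (AT4G00660) overlaps AT4G00670 on the other strand and matches 61.7% of its model. It read 34.3 and 37.7 FPKM in Col-0 and 33.6 and 40.6 FPKM in shr-2, and its reads may be counted for AT4G00670.

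AT5G20935, CRR42, known from the assembly of the chloroplast NDH complex, read 2.82 and 3.09 FPKM in Col-0 and 14.8 and 13.5 FPKM in shr-2. AT2G32960, PFA-DSP2, an atypical dual-specificity phosphatase, read 2.45 and 1.88 FPKM in Col-0 and 9.83 and 9.67 FPKM in shr-2. AT2G17850, a rhodanese-like protein, read 0.468 and 0.363 FPKM in Col-0 and 11.2 and 6.98 FPKM in shr-2. The TRAF-like proteins AT4G01390 and AT2G04170 lay at different levels. AT4G01390 read 1.58 and 1.08 FPKM in Col-0 and 16.7 and 16.7 FPKM in shr-2, and AT2G04170 read 0.114 and 0.0277 FPKM in Col-0 and 5.89 and 5.79 FPKM in shr-2. AT5G58120, a disease resistance protein of the TIR-NBS-LRR class, read 0.819 and 1.04 FPKM in Col-0 and 4.72 and 6.98 FPKM in shr-2. Both shr-2 libraries lay above both Col-0 libraries in all of these, which the rule of choice favours.

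An uncharacterized pair of related members, AT3G43110 and AT5G20790, share 53.4% of their residues. AT3G43110 read 0.366 and 0.58 FPKM in Col-0 and 8.29 and 7.67 FPKM in shr-2. AT5G20790 read 1.26 and 1.66 FPKM in Col-0 and 12.3 and 8.37 FPKM in shr-2. The window before AT3G43110 holds CACGTG (the G-box of bHLH and bZIP factors) at -136 and -44, a motif found in 9.76% of member windows and 7.67% of all windows. Its relative's window holds no such match.

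The closest protein relative of a member was not used by the rule and could be tested. A relative with at least 40% identity over at least 70% of the member was found for 32 members and 26 different relatives were tested. Of these, 5 rose and 4 fell in shr-2, which is 19.2% and 15.4%. The count that rose was 3 without Col-0 replicate 1 and 2 without shr-2 replicate 2. AT1G73010, PS2, a phosphatase known for its induction by phosphate starvation, rose from 1.32 and 1.03 FPKM to 30.0 and 26.5 FPKM, a log2 fold change of 3.75 ± 0.13 (standard error, limma, adjusted p = 0.000216). Its member AT1G17710, PEPC1, a phosphatase of the same family with 76.4% identity, read 0.899 and 0.687 FPKM in Col-0 and 7.19 and 8.05 FPKM in shr-2. Of the 27 pairs of a member and a tested relative, PS2 was the only relative with a larger difference than its member. The members were chosen for a large difference, so that count says nothing of its own.

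**Figure D3:**
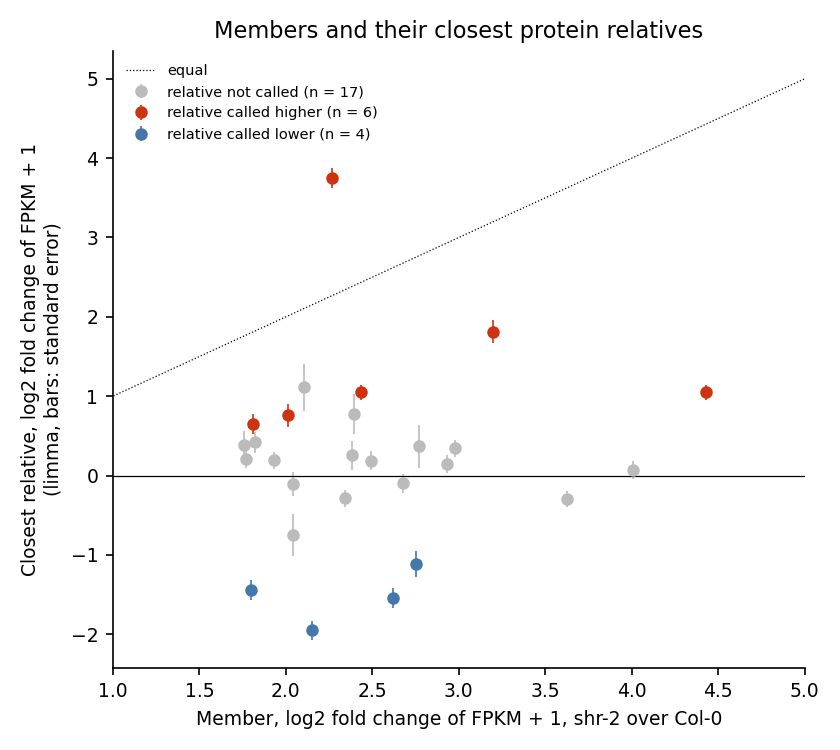
Log2 fold change of FPKM + 1 in shr-2 over Col-0 of each member (horizontal) and of its closest relative (vertical, with limma standard errors), for 27 pairs. AT5G05960 is the relative of 2 members and appears at each, and PS2 is the point above the line of equal change.

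AT5G05960, the closest relative of both AT3G53980 and AT2G37870, rose from 78.2 and 83.8 FPKM to 170.5 and 166 FPKM (limma, log2 fold change 1.05, adjusted p = 0.00226). AT1G47786, a hydrolase next to its relative AT1G47780, was listed at 0 in both Col-0 libraries and read 2.40 and 2.64 FPKM in shr-2 (adjusted p = 0.00176, limma). AT5G38550 and AT1G63750 also rose, with log2 fold changes of 0.76 and 0.65. Those calls were lost without Col-0 replicate 1, Col-0 replicate 2 or shr-2 replicate 2.

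Going the other way, AT1G78850 fell from 340 and 387 FPKM to 114 and 134 FPKM, a log2 fold change of -1.55 ± 0.13 (standard error, limma, adjusted p = 0.00199). AT4G12510, related to AT4G00165 and annotated to the same superfamily, fell from 68.8 and 81.0 to 19.4 and 17.7 FPKM (limma, adjusted p = 0.000972). AT5G44390, a FAD-binding Berberine enzyme related to AT5G44400, fell from 5.22 and 4.91 to 1.11 and 1.36 FPKM (limma, adjusted p = 0.00234). AT5G28010, a relative of AT5G28000, fell from 2.31 and 1.70 to 0.427 and 0.332 FPKM (limma, adjusted p = 0.00908). The transcripts of AT1G78860 and AT1G78850 share 91.3% identity over 82.5% of the former, so reads that match both could have been split between them. Together they summed to a lower level in shr-2, because the neighbour was the more abundant in Col-0.

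Chromosomal position was also free of the rule. The next gene of the table on each side of a member, other members skipped, gave 161 different neighbours, 99 of them tested. Of those, 13 rose (13.1%) and 19 fell (19.2%), beside 13.9% and 13.7% of all genes tested. The count of neighbours that rose dropped to 5 without either Col-0 replicate and to 6 without shr-2 replicate 2, and the count that fell dropped to 10 without Col-0 replicate 1 and 12 without Col-0 replicate 2. The counts over the whole table shrank with them, from 2778 higher to 1056, 1214 and 1720 without the same libraries.

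Among neighbours that did not overlap their member, those downstream on the same strand fell most often. Of 25 tested, 11 fell (44.0%) and 2 rose. Upstream on the same strand, 2 of 30 fell and 6 rose (20%). This split by position was made after the values were seen, and a test of the difference was not made. Without Col-0 replicate 1, 6 of the downstream genes were called lower. Protein relatives of the member made up 5 of the 11, namely AT1G78850, AT5G44390, AT5G28010, AT1G65510 and TRI (AT2G29330), a tropinone reductase.

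**Figure D4:**
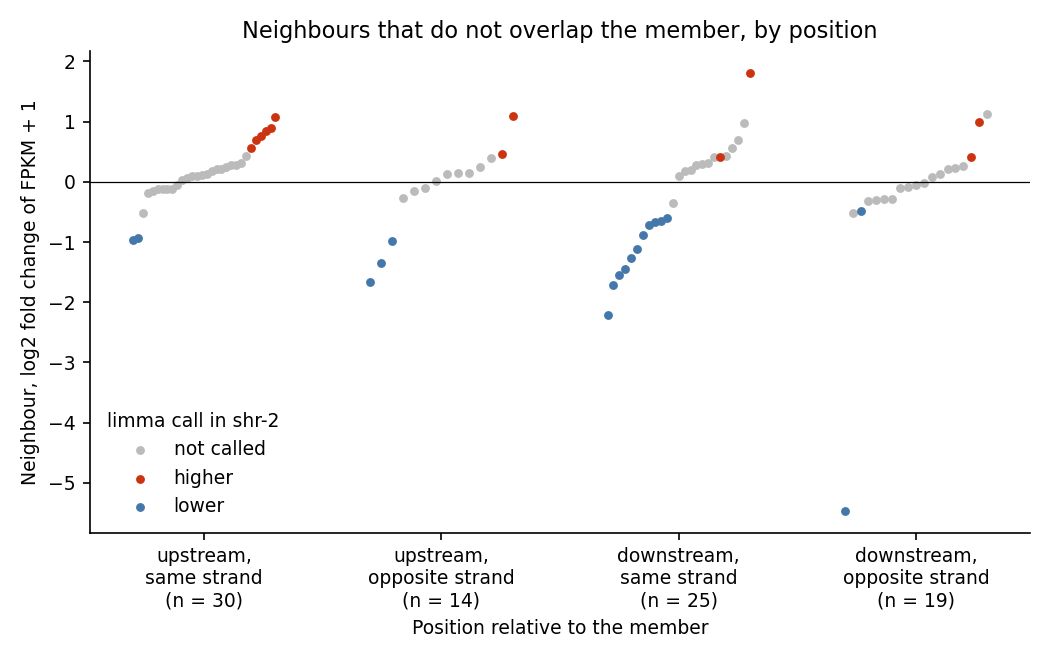
Log2 fold change of FPKM + 1 of each tested neighbour that does not overlap its member, by position relative to the member. Points in each class are in order of value, and 11 of the 25 downstream same-strand genes are called lower (blue).

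TRI fell from 4.26 and 4.61 FPKM to 0.222 and 0.116 FPKM (limma, log2 fold change -2.22, adjusted p = 0.000994). It lies 732 bases downstream of AT2G29320, a short-chain reductase member that read 1.13 and 1.91 FPKM in Col-0 and 10.5 and 18.7 FPKM in shr-2. On the other side of that member, AT2G29310 rose from 9.84 and 9.73 to 19.8 and 18.4 FPKM (limma, adjusted p = 0.00351). These neighbouring genes of one family did not move in 1 direction. The next in the row, AT2G29300, was listed at 0.222 and 0.218 FPKM in Col-0 and at 0.924 and 1.04 FPKM in shr-2, too low to be tested. Its transcript matches 53.5% of the AT2G29320 model at 92.7% identity, so reads that match both could have been split between them.

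The largest fall next to a member was that of AT1G17700, PRA1.F1, a prenylated RAB acceptor of the membrane traffic system. It read 41.3 and 57.0 FPKM in Col-0 and 0.252 and 0 FPKM in shr-2 (limma, log2 fold change of FPKM + 1 -5.47, standard error 0.20, adjusted p = 0.000256). It ends 65 bases from the end of AT1G17710, on the other strand, and that member was higher in shr-2. AT5G15410, DND1, a cyclic nucleotide-gated channel known from defence mutants, fell from 19.5 and 21.1 to 7.35 and 8.34 FPKM downstream of AT5G15420 (limma, adjusted p = 0.00219). AT5G15420 was listed at 0 in both Col-0 libraries and read 9.07 and 14.1 FPKM in shr-2. The transcript of AT1G20390, which lies elsewhere, matches 66.4% of the AT5G15420 model at 95.3% identity. Reads that match both could have been counted for AT5G15420, and no levels were available for AT1G20390.

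Overlap with another gene model affected 25 of the members, 22 of them on the opposite strand only. The partners outside the members numbered 24, of which 14 were tested, 1 rose and 1 fell. The partner that rose was AT2G05914, a long non-coding RNA gene that overlaps AT2G05915 on the other strand. It read 0.464 and 0.617 FPKM in Col-0 and 165 and 221 FPKM in shr-2 (limma, log2 fold change 6.96, adjusted p = 0.000194). Both models of the place were near zero in Col-0 and high in shr-2, and reads of one may be counted for the other. The partner that fell was AT5G16360, from 51.2 and 53.5 to 34.8 and 31.4 FPKM (limma, adjusted p = 0.0091), opposite AT5G16350, an acyltransferase of the wax synthase-like family.

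As a group the members encoded small proteins. The median length was 161 residues, against 350 for unnamed coding genes with at least 5 FPKM in shr-2 and 348 for all coding genes. Fewer than 100 residues were found in 26 of 82 (31.7%), against 6.70% of those unnamed genes. Without the 6 members whose model is under 200 bases, the share was 26.3%. A single exon was found in 36.6% against 15.4%, and an uncharacterized product in 36.6% against 12.6%. An annotation note placed 23.2% in the endomembrane system, against 10.9%, and 4.88% in the chloroplast, against 12.8%. Any such note on location was present for 34.1% of members, against 46.3%. These are descriptions of a group chosen on FPKM, which scales with model length, and length was not held equal.

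The median member had 134 coding genes within 250 kb on either side, against 138 for unnamed coding genes with at least 5 FPKM in shr-2, but a minority lay where coding genes are sparse. Fewer than 100 in that span were found for 15 of 82 members (18.3%), against 6.37% of those unnamed genes. Of the 27 members whose Col-0 mean was at most 0.05 of the shr-2 mean, 9 (33.3%) lay in such a place. Around AT5G32460 there were 7 coding genes and 88 pseudogenes or transposon genes, and around AT2G11270 there were 33 and 99. Those 27 had a median of 13 pseudogenes or transposon genes nearby, against 7 for the other 55 and 6 for all coding genes. Chromosome 2 held 24.4% of the members and 13.9% of those unnamed genes.

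Of the marker lists of tissues, only that of ground tissue moved with the genotype as a whole. The 10 genes of ground tissue and the Casparian strip, SHR included, all fell, and their sum was 602 and 723 FPKM in Col-0 and 23.2 and 26.1 in shr-2. Of 10 light-harvesting and Rubisco genes, 5 rose. The Rubisco small subunit RBCS1A (AT1G67090) made up most of their sum, at 1223 and 1461 FPKM in Col-0 and 5517 and 7851 FPKM in shr-2. The other 9 genes summed to 669 and 670 FPKM in Col-0 and 1012 and 1226 FPKM in shr-2. Stomatal lineage markers rose in 2 of 4 tested, 1 of 5 epidermis markers fell, 1 of 3 phloem markers fell and 1 of 5 xylem markers rose. Seed storage and oil body genes summed to at most 1.21 FPKM in any library. In whole hypocotyls, fewer cells of a type and less RNA per cell cannot be told apart, and the part of these shifts in the members' levels was not tested.

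For the record of calls, limma placed 78 of the 82 members past its threshold in the direction by which they were chosen, beside 13.9% of all genes. The authors' deposited table called 66 of the 78 with a completed test, beside 12.6% of all completed tests in that direction. Neither count is evidence for the members, which the same contrast selected. Named coding genes met the same limits in 94 of 8131 at 5 FPKM, or 1.16%, close to the 1.21% of unnamed ones. The mirrored rule, at least 5 FPKM in Col-0 and at most 0.25 of it in shr-2, was met by 130 unnamed coding genes, 1.92% of those at 5 FPKM in Col-0.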

How the data were processed

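Poly(A) RNA was sequenced from 2 Col-0 and 2 shr-2 libraries. The authors deposited FPKM per gene and library and a comparison table with log2 fold changes and q-values. The submitters' processing notes name TAIR10 and the tools Cuffdiff 2.2.0, TopHat2 2.0.13 and CASAVA 1.8.2. Araport11 models were used per the file headers. Library totals in reads are not given in the sources used here, so depth is unknown beyond the step in low values, and FPKM hides changes in total RNA per cell. Groups came from the titles.

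Members were found by the rule on the deposited FPKM. The 19920 genes that averaged 1 FPKM or more entered one limma fit (limma 3.58.1, R 4.3.3) on log2(FPKM + 1), computed here from the deposited FPKM, with genotype only, a mean-variance trend, a 2-sided test and Benjamini-Hochberg adjusted p under 0.05. Every p in the text comes from this fit. It sets a genotype difference against the spread between these samples, 2 libraries per genotype, with that spread partly borrowed from other genes. Positions, products and sequences came from RefSeq TAIR10.1, to which all 32538 genes matched by identifier, and 99.98% of deposited loci contained the annotated gene. Relatives and copies were sought with BLAST+ 2.17.0 at an expect limit of 1e-05, with at least 90% identity over 50% for transcript copies, found for 15 members, 9 of them an overlapping gene. Alignments and counts used Python 3.11.15 and Biopython 1.88.

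Members, families, lists and tests were chosen with earlier results of these data known, and 2 families (wound-responsive and TRAF-like) and the order of the others were set after the members were seen. Genes named are SHR, the 10 members of highest shr-2 mean, the 10 of largest difference, up to 3 of each family with at least 3 members, members next to each other, the 3 most different between libraries of a genotype, the 2 nearest each side of each limit, and neighbours and relatives called with the smallest adjusted p. PEPC1, AT5G15420, AT2G29300, AT2G29320, AT3G25190, EXT12 and AT2G43590 are named for their relatives, neighbours or family, and AT5G19100, AT1G80130, AT4G00670, CRR42, PFA-DSP2, AT2G17850, AT4G01390, AT2G04170, AT5G58120, AT3G43110 and AT5G20790 were chosen after their values were seen. Alternatives are given in the closing section.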

Additional observations from a re-analysis of the deposited data

How the results depend on the processing

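The number of members depends on the limits. It was 46 with a minimum of 10 FPKM, 325 with a ratio of at most 0.5 and 46 with a stricter ratio. Leaving out one library gave 81 to 92, with 71 to 79 of the 82 among them, and asking it of every library gave 60. With only neighbours within 1000 bases, 6 rose, and with a mean of at least 5 FPKM 3 relatives rose.

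Replicate numbers are shared by the genotypes, but the labels do not say that they pair samples, and with 2 pairs the data cannot show it (correlation of deviations 0.305). With the replicate block, 4486 genes rose and 4243 fell, 26 neighbours and 10 relatives rose, and 1611 non-members of the described families rose against 1040 without it. The cause was not tested.

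Leaving out one library gave 1056 to 2158 genes higher and 1112 to 1994 lower, 5 to 10 neighbours higher and 10 to 17 lower, 6 to 10 downstream same-strand neighbours lower, 2 to 4 relatives higher and 382 to 792 family non-members higher. Fewer libraries enter those fits, and a lone library is assumed to vary like the other genotype's. Of 20 named non-members, all 115 values with every library kept stayed on their side of the threshold. With one library left out, some calls were lost and no value changed sign. A gene under a fit's limit on the mean gave no value there. Other non-members printed with a p, such as AT2G29310 and AT5G16360, were not followed in this way. Values near 1 fragment are limited by depth, and the number of fragments behind the values of short models is unknown.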
